A study of Rattus norvegicus with 9 samples.

Results

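Serotonin receptor genes were followed in the injured and stimulated rat spinal cord. The 9 genes described were Htr1a, Htr1b, Htr1d, Htr2a, Htr2b, Htr2c, Htr3a, Htr4 and Htr7. They were found by gene symbol, and each had 1 of the 30507 rows of the count table. RNA was taken from the whole cord at T9-T11, the level of the injury, on day 35 from wild-type female Sprague-Dawley rats that were 8 weeks old at purchase, with 3 rats in each of 3 groups and 1 library for each rat. The Sham group had a laminectomy only by the study's methods and is labelled as normal and untreated. The SCI group had a contusion at T10 made with an impactor, and only an electrode plug was fixed to the skin. The SCI + SCS group had the same contusion, epidural electrodes, and stimulation at 10 kHz for 2 h per day from day 1. No library came from injured rats with an electrode and no stimulation, so electrode and stimulation cannot be told apart. All 9 libraries carry a single batch label.

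Serotonin in the cord comes mainly from axons that descend from the raphe nuclei of the brainstem, and it acts on motor, autonomic and pain circuits through several receptor families. The 5-HT1 receptors couple to the inhibitory G proteins Gi and Go, the 5-HT2 receptors couple to Gq and phospholipase C, and the 5-HT4 and 5-HT7 receptors couple to Gs and raise cyclic AMP. The 5-HT3 receptor differs from all of these because it is an ion channel opened by serotonin.

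Most receptor transcripts fell after contusion. Of the 8 receptor genes with enough counts to be tested, 6 were lower in SCI than in Sham (Htr1a, Htr1d, Htr2a, Htr2c, Htr3a and Htr7), 1 was higher (Htr2b) and 1 did not pass the test (Htr1b). In SCI + SCS, 3 were lower than in Sham (Htr1a, Htr2a and Htr2c) and 1 was higher (Htr2b). Between SCI + SCS and SCI no receptor gene passed the main test, although 4 genes (Htr2a, Htr2c, Htr3a and Htr7) were higher in all 3 stimulated libraries than in all 3 SCI libraries. A gene was called at an adjusted p under 0.05 (edgeR quasi-likelihood test, Benjamini-Hochberg adjustment over all genes tested). Levels are TMM-normalized CPM (counts scaled to the library total) unless given per transcript length as FPKM.

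These counts stand against broad changes over the transcriptome. In SCI against Sham, 25% of 17822 genes were called lower and 24.3% higher, and the 2 groups did not overlap for 31.1% of genes that were lower and 32.5% that were higher. Here the receptor genes counted 6 lower and 1 higher by both measures, with a median log2 difference of −2.50 against 0.015 over all genes tested. In SCI + SCS against Sham, 16.2% of 17640 genes were called lower and 16.2% higher, and 26.2% and 27% were lower and higher without overlap. There the receptor genes counted 3 called lower and 4 lower without overlap, with 1 higher by both, and a median of −1.49 against 0.0077. In SCI + SCS against SCI, 0% of 17663 genes were called lower and 0.00566%, a single gene, higher, while 13.9% and 15.6% were lower and higher without overlap. For the 6 receptor genes tested, none was lower and 4 were higher without overlap, and their median was 0.99 against −0.0055. The 3 comparisons share libraries, so their values are not independent of each other.

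The libraries held 62844376 to 88358570 counts, and 3 counts, used as the floor of detection, correspond to 0.0341 to 0.0470 CPM. Defining genes of spinal cord glia were abundant in all libraries, with 8 oligodendrocyte genes summing to 17792 to 83454 CPM and 8 astrocyte genes to 6883 to 15757 CPM. Whole cord contains many cell types, and fewer cells of a type cannot be told apart from less RNA per cell. The summed level of 18 neuron marker genes was 5732 to 12432 CPM in Sham, 1003 to 2948 in SCI and 2759 to 4492 in SCI + SCS. All 18 of these markers were called lower in SCI than in Sham and 14 in SCI + SCS than in Sham, while edgeR called none between SCI + SCS and SCI, where 10 were higher at an unadjusted p under 0.05 and DESeq2 called 9 higher. Sham replicate 2 stood apart in genes of peripheral sensory neurons. Scn10a, a sodium channel of nociceptors, was at 55.3 CPM there and at 0.0887 to 3.36 CPM in the other 8 libraries. Skeletal muscle genes were high in SCI replicates 1 and 3, at a summed 4237 and 1381 CPM for the 12 list genes in the table, against 39.5 to 90.2 CPM elsewhere.

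**Figure D1:**
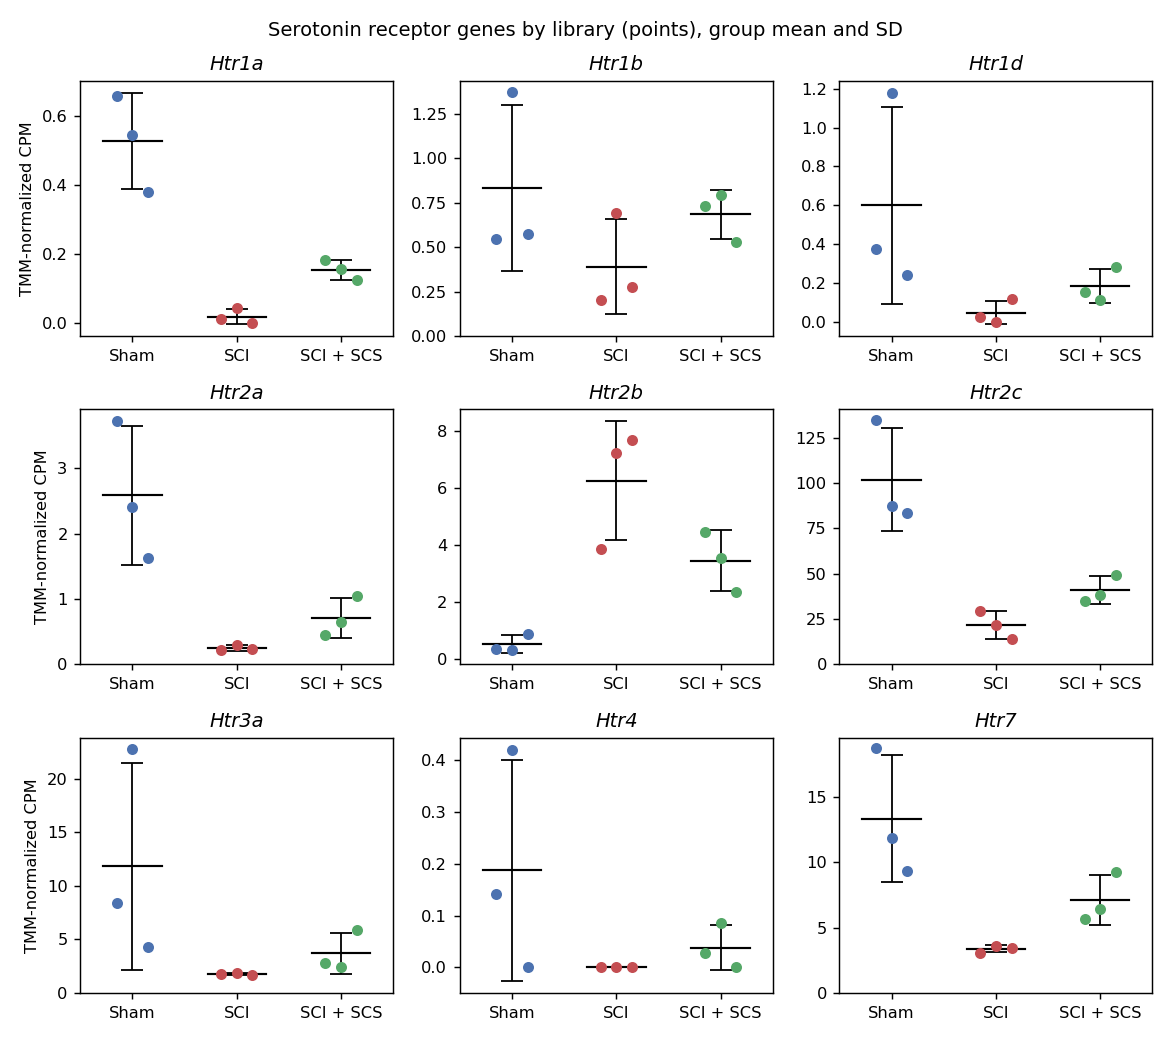
TMM-normalized CPM (y axis) of each of the 9 receptor genes by group, with points for libraries, long bars for group means and error bars for SD (n = 3). Htr2b is the gene whose SCI libraries (3.87 to 7.69 CPM) all lie above Sham (0.341 to 0.886 CPM), and Sham replicate 2 is the high point for Htr1b, Htr1d, Htr3a and Htr4.

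Promoter sequence is shown for 3 genes that the results turn on, chosen after their values were seen. Htr2c was the most abundant receptor transcript, Htr7 had the smallest adjusted p of the 9 genes between SCI + SCS and SCI, and Htr2b was the gene that rose after injury. Each line gives the 250 bases before the transcription start, 5′ to 3′ on the gene's own strand, from RefSeq on the GRCr8 build, and 5 of the 9 genes had an entry in that table (also Htr1b and Htr1d). Htr2c lies at chrX:115452940-115453189 on the plus strand, Htr7 at chr1:243173049-243173298 on the minus strand and Htr2b at chr9:94204088-94204337 on the minus strand. Capitals mark matches, on either strand, to CCAAT (in Htr2c, as its reverse complement) and to TGACG, a short form of the cyclic AMP response element (in Htr7, as its reverse complement).
Htr2c: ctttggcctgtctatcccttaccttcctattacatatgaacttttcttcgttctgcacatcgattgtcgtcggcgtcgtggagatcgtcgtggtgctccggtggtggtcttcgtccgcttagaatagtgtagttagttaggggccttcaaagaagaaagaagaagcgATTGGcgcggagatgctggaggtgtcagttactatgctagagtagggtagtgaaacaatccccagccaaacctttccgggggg
Htr7: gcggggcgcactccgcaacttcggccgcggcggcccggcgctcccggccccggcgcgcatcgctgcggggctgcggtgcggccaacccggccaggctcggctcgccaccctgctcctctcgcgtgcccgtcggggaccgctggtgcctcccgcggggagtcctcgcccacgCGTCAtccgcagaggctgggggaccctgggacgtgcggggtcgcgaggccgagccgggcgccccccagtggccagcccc
Htr2b: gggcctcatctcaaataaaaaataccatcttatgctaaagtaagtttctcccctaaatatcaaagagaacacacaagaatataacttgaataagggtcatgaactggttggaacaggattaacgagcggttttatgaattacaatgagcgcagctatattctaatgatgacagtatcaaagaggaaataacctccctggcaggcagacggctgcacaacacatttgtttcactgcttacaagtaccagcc
The 3 windows differed in base composition. The G and C content was 50.4% for Htr2c, 80.8% for Htr7 and 39.6% for Htr2b, which are percentiles 46.1, 99.1 and 13.0 of 33469 rat promoters of the same length. The CCAAT match began at position −83 in Htr2c, and 34.0% of all promoters hold one. The TGACG match began at −79 in Htr7, and 18.2% of all promoters hold one. Of the other motifs searched, on both strands, none was found in these 3 windows. The full cyclic AMP response element, TGACGTCA, which contains the short form, is in 1.59% of all promoters. The GC box, GGGCGG, is in 30.5% of them. The TATA box, spelled TATAAA, is in 12.9%. The Htr2b window held none of the 5 motifs. These matches are letters in a window and say nothing of binding.

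Htr2c was the dominant receptor transcript of the cord in Sham and fell after injury. It encodes the 5-HT2C receptor, a Gq-coupled receptor known for its part in the excitability of motoneurons after spinal injury, and its gene spans X:110641153-110870287 on the plus strand in mRatBN7.2. The 3 Sham libraries held 135, 87.6 and 83.5 CPM. The SCI libraries held 29.4, 22 and 13.8 CPM, and the SCI + SCS libraries held 35.2, 38.3 and 49.5 CPM. The 3 groups did not overlap, with every stimulated library above every SCI library and below every Sham library. The mean was 21.3% of Sham in SCI and 40.2% in SCI + SCS. The log2 fold change was −2.25 (SE 0.33, edgeR quasi-likelihood adjusted p = 0.00288) in SCI against Sham, and −1.31 (SE 0.23, adjusted p = 0.0100) in SCI + SCS against Sham. Between SCI + SCS and SCI it was 0.93 (SE 0.27), which did not pass the edgeR test (adjusted p = 0.115).

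Htr2a, which encodes the 5-HT2A receptor, the other Gq-coupled receptor known to excite motoneurons, was far less abundant and fell further. It lies at 15:49950804-50020928 on the plus strand in mRatBN7.2. The Sham libraries held 3.73, 2.42 and 1.62 CPM. The SCI libraries held 0.228, 0.298 and 0.232 CPM and the SCI + SCS libraries 0.449, 0.652 and 1.05 CPM. Again the groups did not overlap and SCI + SCS lay between the other two. Its SCI mean was 9.76% of Sham, and its SCI + SCS mean was 27.7%. In SCI against Sham its log2 fold change was −3.37 (SE 0.41, edgeR adjusted p = 0.00195), and in SCI + SCS against Sham −1.85 (SE 0.44, adjusted p = 0.0233). The latter call was kept in 2 of the 6 fits that left out 1 library and lost, for example, without Sham replicate 2 (−1.90, adjusted p = 0.0663). Between SCI + SCS and SCI the value was 1.51 (SE 0.43, edgeR adjusted p = 0.109).

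Htr2b moved in the opposite direction. It encodes the 5-HT2B receptor, which is known from heart valves, vessels, fibroblasts and cells of the macrophage lineage, microglia included, and lies at 9:86742102-86755108 on the minus strand in mRatBN7.2. Counts were 24, 30 and 77 in Sham, 305, 508 and 531 in SCI, and 318, 250 and 151 in SCI + SCS, or 0.376, 0.341 and 0.886 CPM, 3.87, 7.21 and 7.69 CPM, and 4.46, 3.55 and 2.36 CPM. All 6 injured libraries lay above all Sham libraries, whereas the SCI and SCI + SCS libraries overlapped. The mean was 0.534 ± 0.305 CPM in Sham, 6.25 ± 2.08 in SCI and 3.46 ± 1.05 in SCI + SCS (SD, n = 3). The log2 fold change was 3.52 (SE 0.48, edgeR adjusted p = 0.0025) in SCI and 2.69 (SE 0.46, adjusted p = 0.00974) in SCI + SCS, each against Sham, and −0.84 (SE 0.33, adjusted p = 0.183) between SCI + SCS and SCI.

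Summed markers of other cell types moved with Htr2b. The summed level of 8 macrophage genes was 392 to 539 CPM in Sham, 2394 to 3921 in SCI and 1888 to 2188 in SCI + SCS. The 9 fibroblast and pericyte genes summed to 511 to 2055, 3511 to 5214 and 2274 to 3715 CPM, and the 10 mast cell and platelet genes in the table to 7.81 to 15.6, 39.8 to 76.5 and 27.0 to 44.4 CPM. Only 4 of the mast cell and platelet genes had enough counts to be tested in SCI against Sham. Pf4 (4.57) and Itga2b (1.46) were called higher, whereas Kit (0.0094) and Hdc (0.21) were not called. Endothelial genes (6 in the table) were at 290 to 314, 366 to 387 and 328 to 377 CPM, and 8 microglia genes at 372 to 533, 730 to 1088 and 812 to 1038 CPM. Single endothelial genes were mixed in SCI against Sham, with 3 of 6 lower and 3 higher (median log2 difference −0.065). Of them, edgeR called Flt1 lower (−1.07) and Cdh5 higher (1.28). All 5 summed lists, like Htr2b, were higher in every injured library than in any Sham library. This was not particular to the 5 lists, since the lymphocyte, ependyma, choroid plexus and adipocyte sums were separated in the same way. For example, the 10 lymphocyte genes summed to 22.2 to 58.6 CPM in Sham, 129 to 192 in SCI and 110 to 148 in SCI + SCS. The part of any of these cell types in the Htr2b result was not tested.

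Among the Gi-coupled receptors, Htr1a fell to the limit of detection in SCI. Htr1a encodes the 5-HT1A receptor, an inhibitory receptor found on raphe neurons as an autoreceptor and on cord neurons, and lies at 2:36694174-36695442 on the plus strand in mRatBN7.2. Counts were 42, 48 and 33 in Sham, 1, 3 and 0 in SCI, and 13, 11 and 8 in SCI + SCS. The groups did not overlap, and the SCI libraries sat at or under the floor of 3 counts. In CPM the mean was 0.527 ± 0.140 in Sham, 0.0184 ± 0.0219 in SCI and 0.155 ± 0.0286 in SCI + SCS (SD, n = 3). The log2 fold change was −4.74 (SE 0.79, edgeR adjusted p = 0.00430) in SCI against Sham, a size that depends on these few counts, and −1.75 (SE 0.39, adjusted p = 0.0188) in SCI + SCS against Sham. The second call was lost in 5 of the 6 fits that left out 1 library, with adjusted p up to 0.0692. Htr1a had too few counts for the test between SCI + SCS and SCI, and without a filter on low counts edgeR gave 2.96 (adjusted p = 0.198).

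Htr1b and Htr1d, which encode the 5-HT1B and 5-HT1D receptors that restrain transmitter release from nerve terminals and are the targets of triptans, were scarce and uneven within Sham. For Htr1b (8:82517360-82534549, minus strand, mRatBN7.2) the libraries held 0.548, 1.37 and 0.575 CPM in Sham, 0.203, 0.695 and 0.275 in SCI, and 0.730, 0.794 and 0.532 in SCI + SCS. These ranges overlapped in every comparison, and Sham replicate 2 was more than any other library. No Htr1b difference passed the edgeR test, with log2 values of −1.11 (SE 0.62, adjusted p = 0.178) in SCI and −0.28 (SE 0.44, adjusted p = 0.645) in SCI + SCS against Sham, and 0.82 (SE 0.52, adjusted p = 0.377) between SCI + SCS and SCI. Without Sham replicate 2 the value in SCI + SCS against Sham turned to 0.29. For Htr1d (5:148674495-148675619, plus strand, mRatBN7.2) the counts were 24, 104 and 21 in Sham, 2, 0 and 8 in SCI, and 11, 8 and 18 in SCI + SCS. Its SCI libraries were below all Sham libraries and Sham replicate 2 was again the high one. The log2 fold change in SCI against Sham was −3.67 (SE 1.10, edgeR adjusted p = 0.0316), and without Sham replicate 2 it was −2.71 and no longer called (adjusted p = 0.112). The call was also lost without SCI replicate 1 (adjusted p = 0.0972) or SCI replicate 2 (adjusted p = 0.0687), and with limma on log2(FPKM + 1) (adjusted p = 0.0693). The Htr1d value in SCI + SCS against Sham was −1.71 (SE 0.71, adjusted p = 0.108).

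Htr7, which encodes the Gs-coupled 5-HT7 receptor, known in the cord for its role in locomotor and pain circuits, fell in SCI and lay between the other groups in SCI + SCS. It is at 1:233636452-233760626 on the minus strand in mRatBN7.2. The Sham libraries held 18.7, 11.9 and 9.35 CPM. The SCI libraries held 3.07, 3.59 and 3.46 CPM and the SCI + SCS libraries 5.67, 6.44 and 9.28 CPM. The SCI values were tight, every stimulated library was above them, and the highest stimulated library came just under the lowest Sham library. The mean was 25.3% of Sham in SCI and 53.5% in SCI + SCS. In SCI against Sham the log2 fold change was −2.0 (SE 0.28, edgeR adjusted p = 0.00273). In SCI + SCS it was 1.09 (SE 0.22, adjusted p = 0.08) against SCI and −0.90 (SE 0.31, adjusted p = 0.0652) against Sham, and neither passed.

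Htr4 encodes the other Gs-coupled receptor of the set and was barely detected. Its gene is at 18:55766725-55890242 on the plus strand in mRatBN7.2. Counts were 9, 37 and 0 in Sham, 0, 0 and 0 in SCI, and 2, 6 and 0 in SCI + SCS. One Sham library also had none, so the groups overlapped, and Htr4 did not pass the filter on low counts in any comparison. The 0 counts in SCI allow a level of up to 0.0380 to 0.0434 CPM in each library, for counting error only. DESeq2, which filters otherwise, called Htr4 lower in SCI than in Sham (adjusted p = 0.0383).

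Htr3a, which encodes the A subunit that every 5-HT3 channel needs, fell in SCI. It lies at 8:49242020-49253005 on the minus strand in mRatBN7.2, next to Htr3b, which encodes the B subunit. The Sham libraries held 8.35, 22.7 and 4.33 CPM. The SCI libraries held 1.79, 1.86 and 1.68 CPM, and the SCI + SCS libraries 2.76, 2.44 and 5.87 CPM. Sham spread widely with replicate 2 the highest, SCI was tight and lay below both other groups, and SCI + SCS overlapped with Sham. The log2 fold change was −2.75 (SE 0.60, edgeR adjusted p = 0.0105) in SCI against Sham, −1.68 (SE 0.66, adjusted p = 0.0929) in SCI + SCS against Sham and 1.06 (SE 0.36, adjusted p = 0.141) between SCI + SCS and SCI. The mean was 15% of Sham in SCI and 31.3% in SCI + SCS, and 28% and 58.2% when Sham replicate 2 was left out. Without that library the fold change in SCI remained called at −1.86 (adjusted p = 0.0156). Without SCI + SCS replicate 3 the value against SCI was 0.55 (adjusted p = 0.362).

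Htr3b, outside the 9 genes, was read almost entirely in Sham replicate 2. It had 706 counts there, 0 and 17 in the other Sham libraries, 3, 4 and 11 in SCI, and 5, 7 and 47 in SCI + SCS. Scn10a and Avil, which mark sensory neurons of the dorsal root ganglion, showed the same 2 libraries as highest, with Avil at 97.7 CPM in Sham replicate 2 and 9.61 CPM in SCI + SCS replicate 3 against 2.15 to 5.67 CPM elsewhere. The 9 sensory neuron genes summed to 153 to 746 CPM in Sham, 43.4 to 127 in SCI and 107 to 175 in SCI + SCS. Htr3a, Htr1b, Htr1d and Htr4 were each highest in Sham replicate 2. The part of sensory neuron material in their levels was not tested beyond leaving that library out.

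**Figure D2:**
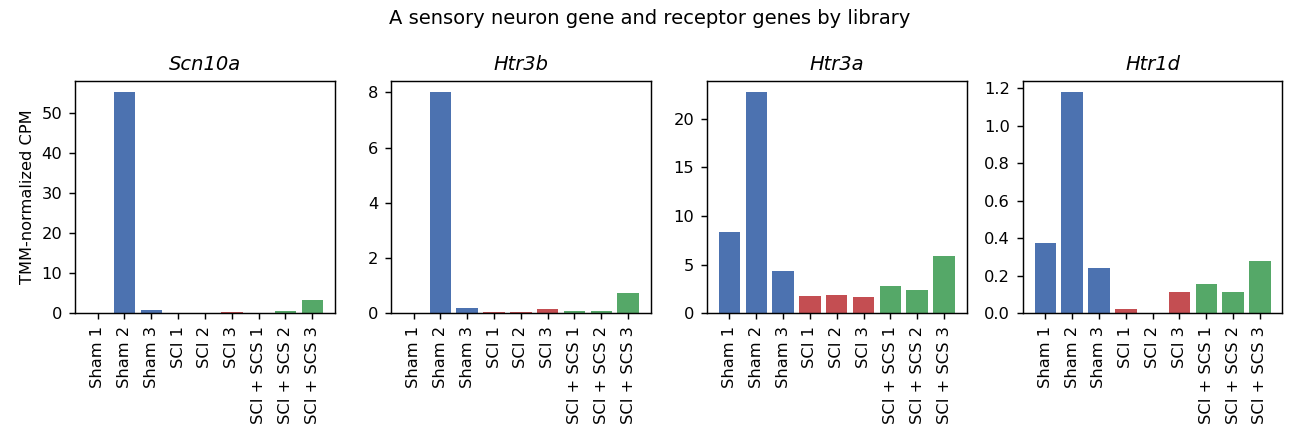
TMM-normalized CPM (y axis) in each library (x axis) of the sensory neuron gene Scn10a and of Htr3b, Htr3a and Htr1d, with 1 bar for each library. Sham replicate 2 is the highest bar in all 4 panels, at 55.3 CPM for Scn10a and 22.7 CPM for Htr3a.

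The fold changes in SCI against Sham were negative for 7 of the 8 genes and positive for Htr2b, and each of the 6 genes tested between SCI + SCS and SCI had the reverse sign there. Since both comparisons use the same SCI libraries, the opposite signs are not independent. Beside the 0 receptor genes that edgeR called between SCI + SCS and SCI, 5 had an unadjusted p under 0.05 (Htr2a, Htr2b, Htr2c, Htr3a and Htr7), as did 4274 of the 17663 genes tested. DESeq2 on the same 6 libraries called 4 receptor genes higher in SCI + SCS, against 8.28% of the genes it tested. They were Htr2a (adjusted p = 0.0404), Htr2c (0.0118), Htr3a (0.0418) and Htr7 (0.000465). For the stimulated group against Sham, DESeq2 called 5 lower, against 19.7% of its genes, which added Htr3a (adjusted p = 0.0147) and Htr7 (0.0156).

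**Figure D3:**
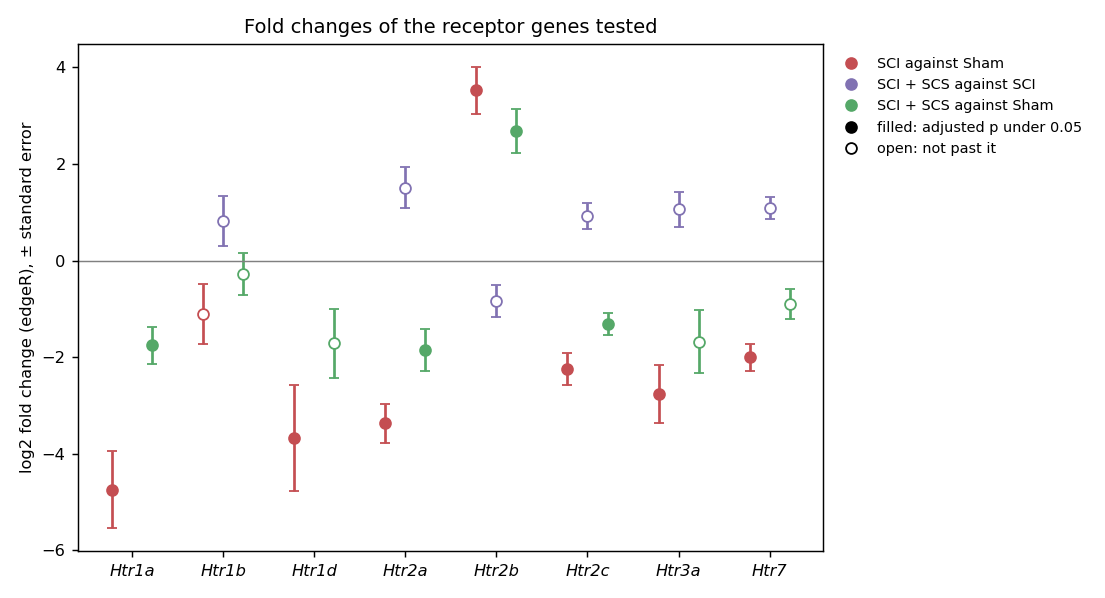
Log2 fold change (y axis, edgeR, error bars ± SE) of the 8 receptor genes tested (x axis) in the 3 comparisons, filled where the adjusted p was under 0.05. The red SCI against Sham points are below 0 except for Htr2b at 3.52, and all violet SCI + SCS against SCI points are open.

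Per transcript length, the ranking of the receptor genes changed after injury. In Sham, Htr2c led at 18.6 ± 4.84 FPKM (SD, n = 3), followed by Htr3a at 4.80 ± 4.04 and Htr7 at 3.22 ± 1.12, which overlapped. The other 6 genes lay under these, from Htr2a at 0.568 FPKM to Htr4 at 0.113, and each overlapped with its neighbour in the order. In SCI, Htr2c at 3.90 ± 1.13 FPKM overlapped with Htr2b at 2.59 ± 1.02, and both were above Htr7 at 0.818 and Htr3a at 0.711, which overlapped. In SCI + SCS, Htr2c at 7.70 ± 1.43 FPKM was again separate from the next genes, Htr7 at 1.78, Htr3a at 1.53 and Htr2b at 1.44, which overlapped with each other. Htr2b thus ranked 8 of 9 in Sham, 2 in SCI and 4 in SCI + SCS.

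The makeup of the summed receptor signal shifted accordingly. The 9 genes together summed to 33.8, 31.6 and 20.6 FPKM in Sham, 7.69, 9.42 and 7.76 in SCI and 11.7, 12 and 15.8 in SCI + SCS, without overlap. The Htr2b share of that sum was 0.441% to 1.73% in Sham, 18.3% to 42.1% in SCI and 6.23% to 15.9% in SCI + SCS, again without overlap. Its higher share in both injured groups than in Sham was already fixed by its higher FPKM and the lower sums there. Between SCI and SCI + SCS the FPKM of Htr2b itself overlapped, with 1.41 in SCI replicate 1 and 1.86 in SCI + SCS replicate 1. The Htr2c share was 52.0% to 73.9% in Sham, 34.1% to 62.8% in SCI and 56.4% to 59.7% in SCI + SCS, and these ranges overlapped. The Htr3a share stayed between 8.32% and 15.4% in 8 libraries and was 29.7% in Sham replicate 2. With 3 libraries against 3 the smallest 2-sided p an exact permutation test can give is 0.1, so these shares are given without a test.

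**Figure D4:**
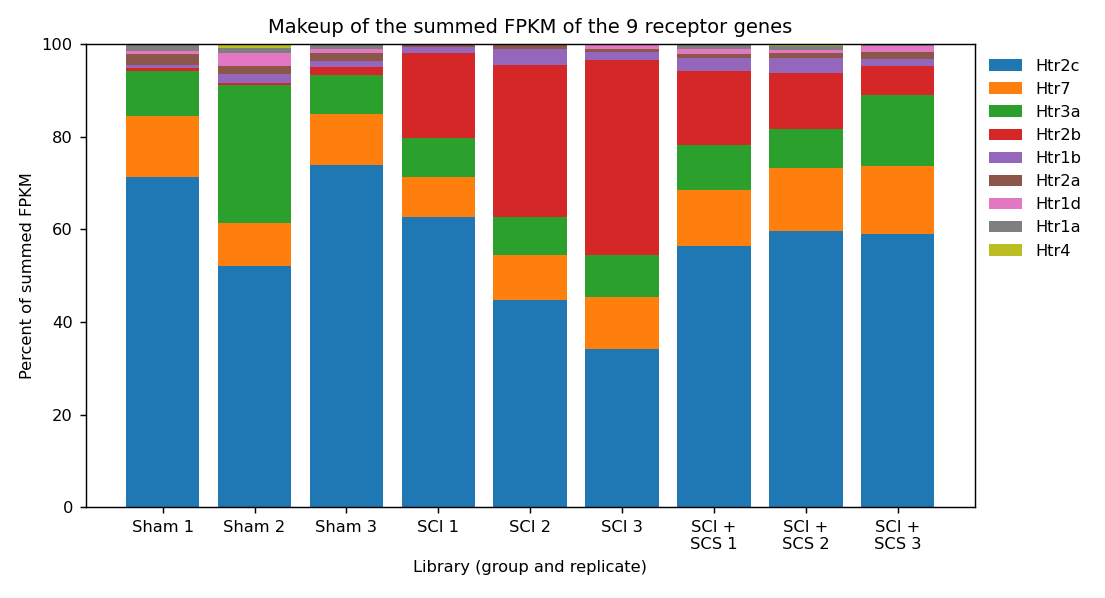
Percent of the summed FPKM of the 9 receptor genes (y axis) taken by each gene in each of the 9 libraries (x axis), stacked to 100%. The red Htr2b segment is 0.441% to 1.73% in Sham and 18.3% to 42.1% in SCI.

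Set against neuron markers, part of the differences between groups was no longer seen. Counts of each receptor gene were divided by the summed counts of the 18 neuron markers and given per 1000 of them. In SCI against Sham, 2 of the 9 genes were then lower without overlap (Htr1a and Htr2a) and 1 was higher (Htr2b). The other 6 overlapped, among them Htr1d, Htr2c, Htr3a and Htr7, which edgeR had called lower. The marker sums themselves spread widely in SCI, at 232500, 122882 and 69327 counts in replicates 1, 2 and 3, and this spread enters every ratio. Its part in the overlap was not tested. For Htr2c the ratio was 10.8, 11.0 and 14.6 in Sham, 9.97, 12.6 and 13.8 in SCI and 12.8, 12.2 and 11.0 in SCI + SCS. The 3 groups overlapped fully. The neurofilament genes make up 27.5% to 54.5% of that list, and without them Htr2c was 22 to 27.0 in Sham, 16.7 to 19.9 in SCI and 20.0 to 20.7 in SCI + SCS, which did not overlap. On that shorter list 3 of the 9 genes were lower, 1 was higher and 5 overlapped in SCI against Sham. The Htr2c result thus depends on which neuron markers it is set against. The ratio was computed for serotonin receptor genes only, so the numbers of genes lower or higher on this scale have no share over all genes beside them.

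Htr2a stayed lower in both injured groups on this scale. It was 0.300, 0.304 and 0.283 per 1000 neuron marker counts in Sham, 0.0774, 0.171 and 0.231 in SCI and 0.163, 0.209 and 0.233 in SCI + SCS, with both injured groups below Sham by either marker list. Htr1a was 0.0529, 0.0686 and 0.0662 in Sham, 0.00430, 0.0244 and 0 in SCI, and 0.0661, 0.0499 and 0.0279 in SCI + SCS, so that SCI was below both other groups. Htr7 was 1.51, 1.5 and 1.63 in Sham, 1.04, 2.06 and 3.45 in SCI and 2.05, 2.06 and 2.07 in SCI + SCS, where all stimulated libraries exceeded Sham by either list. Htr2b was higher in both injured groups than in Sham, which its higher CPM and the lower neuron marker sums there already fixed.

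**Figure D5:**
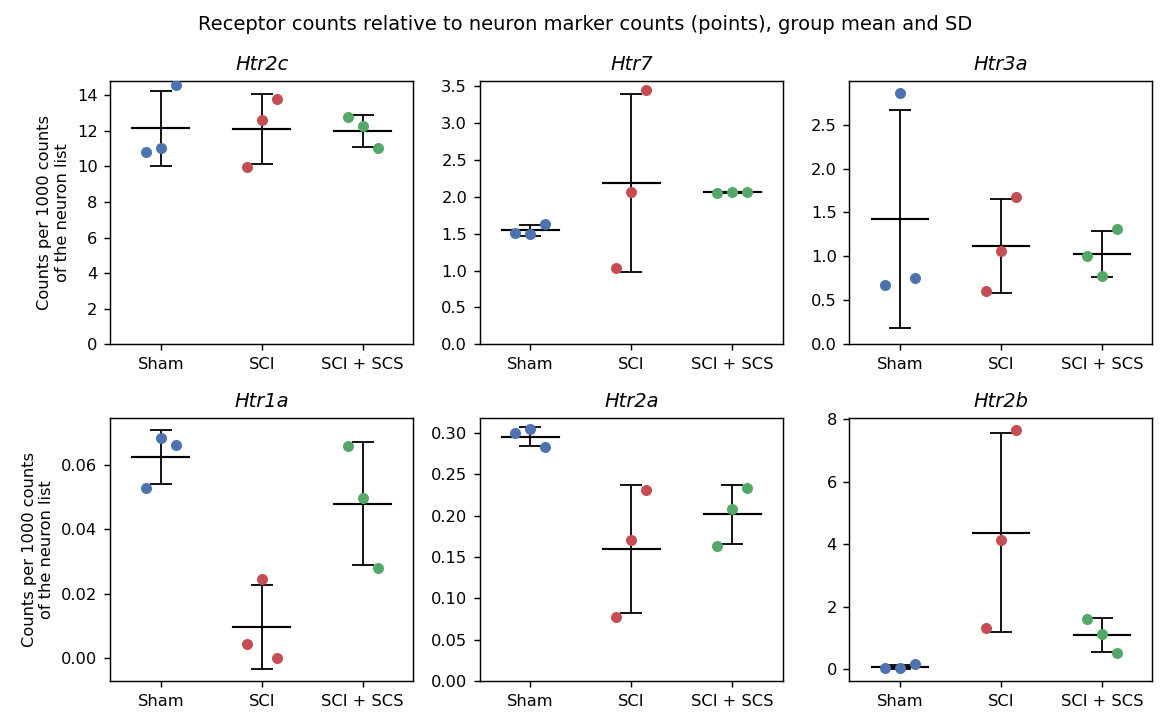
Counts of 6 receptor genes per 1000 counts of the neuron marker list (y axis) by group, with points for libraries, long bars for means and error bars for SD (n = 3). Htr2c libraries overlap across groups (9.97 to 14.6), while all Htr2a libraries of the injured groups are below Sham.

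The other 5 serotonin receptor genes of the table followed at low counts. Htr5a, which encodes a Gi-coupled receptor, had 98, 101 and 71 counts in Sham, 0, 6 and 0 in SCI and 33, 34 and 27 in SCI + SCS. The groups did not overlap. Its log2 fold change was −5.33 (SE 1.06, edgeR adjusted p = 0.00745) in SCI and −1.35 (SE 0.32, adjusted p = 0.0233) in SCI + SCS against Sham, and 3.96 (SE 1.01, adjusted p = 0.0959) between SCI + SCS and SCI, where DESeq2 gave an adjusted p of 0.00982. These sizes rest on the 6 counts of SCI replicate 2, and without that library they were −9.51 in SCI against Sham and 8.02 between SCI + SCS and SCI. Htr5a was the only one of the 5 that edgeR called in either comparison with Sham, and its call in SCI + SCS was kept in 1 of the 6 fits that left out 1 library. Htr1f, Htr3b and Htr5b were not called in SCI against Sham, at −1.39 (adjusted p = 0.0954), −5.03 (0.0846) and −2.34 (0.0776), and Htr6, with 0 to 21 counts, was tested only in SCI + SCS against Sham (−0.44, adjusted p = 0.503).

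Genes of serotonin synthesis, transport and breakdown were called about as often as genes at large. Of 16 tested in SCI against Sham, 4 were lower and 3 higher, with a median of −0.25, where 25% and 24.3% of all genes tested were lower and higher. Those lower were Ddc, the decarboxylase that makes serotonin and dopamine (−2.62), Tph2, the neuronal tryptophan hydroxylase (−2.29), Qdpr, which recycles the hydroxylase cofactor (−1.67), and Maoa, which breaks serotonin down (−0.85). Those higher were Slc22a2, a cation transporter (3.19), the transcription factor Gata3 (1.17) and the aldehyde dehydrogenase Aldh2 (1.02). Against Sham, SCI + SCS had Ddc (−1.95), Qdpr (−1.08) and Maoa (−0.59) lower and Aldh2 (0.88) and Maob (0.45) higher, where 16.2% of all genes were called in each direction. Between SCI + SCS and SCI edgeR called none of the 16, with 2 lower and 2 higher at an unadjusted p under 0.05, and DESeq2 called 1 lower, as it did 1113 of the 17356 genes it tested. Slc6a4, the serotonin transporter of the raphe neurons themselves, had at most 9 counts in any library and was not tested. Slc18a2, the vesicular monoamine transporter, was at −0.27 (adjusted p = 0.123) in SCI against Sham, and Tph1 was not called.

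The genes through which the receptors signal fell more often than they rose. Of 41 genes of G proteins, effectors, regulators and partners, 27 were called lower and 4 higher in SCI against Sham, with a median log2 difference of −0.82, beside 25% and 24.3% of all genes tested. The lower genes with the largest change were Kcnj3, a subunit of the potassium channel opened by Gi-coupled receptors (−3.00), the Gi family subunits Gnai1 (−2.44) and Gnaz (−2.42), and Rgs4, which shortens G protein signals (−2.34). The higher ones were Plcb2, a phospholipase C of blood cells (2.53), S100a10, which binds 5-HT1B and 5-HT4 receptors (1.58), Gnai2 (0.76) and Cc2d1a, a repressor of Htr1a (0.44). In SCI + SCS against Sham, 12 were lower, led by Gnai1 (−1.48), Kcnj3 (−1.46), Gnaq (−1.28) and Gnal (−1.27), and the same 4 genes were higher, with Plcb2 at 2.2, S100a10 at 0.93, Gnai2 at 0.81 and Cc2d1a at 0.37, where 16.2% of all genes were called in each direction. Between SCI + SCS and SCI edgeR called none, with 1 lower and 20 higher at an unadjusted p under 0.05, whereas DESeq2 called 1 lower and 15 higher, beside 8.28% of all its genes called higher.

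The genes whose profiles were nearest to each receptor gene were found by the root mean square difference of log2 CPM, each gene centred on its own mean, over the 9 libraries and 16688 genes with a symbol. Htr2c had the closest match of all, with AABR07039336.2 at 0.0593 and the mitochondrial creatine kinase Ckmt1 at 0.0826. Htr7 was nearest to Ankrd34a (0.0872) and Pnma8b (0.132). Htr2a was nearest to the chromatin remodeller Chd5 (0.210) and the GABA transporter Slc6a11 (0.225). Htr2b was nearest to Fblim1 (0.182) and the chemokine Ccl3 (0.289), and Htr3a to Gna14 (0.266) and Rgs4 (0.326). The nearest genes were Lifr (0.272) and Calcrl (0.310) for Htr1b. The matches were looser for Htr1a (Ryr2, 0.384, and Sgpp2, 0.403) and Htr1d (Gpr26, 0.599, and Minar1, 0.647). Counts per library were only 0 to 48 for Htr1a and 0 to 104 for Htr1d, so counting error enters their distances. The median over all genes compared ran from 0.803 for Htr1b to 1.60 for Htr2b, and Htr4 did not pass the filter. These distances are descriptions over libraries that share groups.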

How the data were processed

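RNA from the T9-T11 cord of 9 rats (3 groups of 3) was enriched for polyadenylated RNA and sequenced by the authors, who deposited a table of counts per gene and one of FPKM for the same libraries. The submitters' processing notes name fastp 0.23.2, HISAT2 2.2.1 and mRatBN7.2. The counting program, annotation and use of strand are not given in the sources used here, so reads of overlapping genes could be shared. The file had 30507 rows, and 494 identifiers stood on several rows, none of them a receptor gene.

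Counts were tested in edgeR 4.0.16 (R 4.3.3) by the quasi-likelihood test with TMM factors, its filter on low counts, the 6 libraries of each comparison and Benjamini-Hochberg adjustment over all genes, where the study used DESeq2. The alternatives were DESeq2 1.42.0, other filters and size factors, a fit of all libraries, a replicate block, removal of muscle and fat genes, each library left out, limma 3.58.1 on log2(FPKM + 1) and log2(FPKM + 0.1), summed repeated rows, and a log2 limit of 1. Neuron ratios without neurofilament genes were added after seeing the data. The fit was tested on simulated data. Depth was 62844376 to 88358570 counts, and intervals and floors cover counting error only. Each library was taken as 1 rat, and p-values set a group difference against the spread between these samples only.

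The genes, lists and tests were chosen with earlier results of these data known. Named were the 9 receptor genes, 5 further receptor genes, 7 fixed genes of serotonin supply, up to 4 called genes in each direction of each pathway list and comparison, marker sums with single marker genes, and the 2 nearest profiles of each receptor gene. Avil was named after its values were seen.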

Additional observations from a re-analysis of the deposited data

How the results depend on the processing

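In SCI against Sham, the 6 receptor genes called lower became 4 with at least 10 counts in every library, where Htr1a and Htr1d were not tested, 7 with DESeq2, and 5 where Htr1d lost its call (limma on log2(FPKM + 1), 1 library left out, and the replicate block, adjusted p = 0.0909). Over all genes, 4462 of 17822 were called lower in the main fit. With at least 10 counts in every library 4337 of 16150 were, and with DESeq2 4901 of 20548. The fits in which Htr1d lost its call had 3238 to 4411 genes lower. The number of receptor genes called higher was 1 in every alternative run. Between SCI + SCS and SCI, the number of receptor genes called higher was 0 in the main analysis and 4 with DESeq2. It was 0 in each direction with every library left out in turn. Over all genes, 1 was called in the main fit, 2550 of 17356 with DESeq2 and 0 to 169 with 1 library left out. In SCI + SCS against Sham, the 3 receptor genes called lower became 5 with DESeq2 and 1 to 5 with 1 library left out. There was 1 without Sham replicate 1, Sham replicate 2, SCI + SCS replicate 1 or SCI + SCS replicate 2, and 5 without Sham replicate 3. The 1 called higher stayed at 1 in these fits. Over all genes, 2849 of 17640 were called lower in the main fit and 3765 of 19147 with DESeq2. The fits left with 1 receptor gene lower had 946 to 2148 genes lower, and the fit without Sham replicate 3 had 3335. A block on the replicate number left 1259 of 17640 genes called in this comparison, against 5710 in the main fit. With that block, 0 receptor genes were called lower and 0 higher. The shared number marks no known pairing, since the correlation of same-numbered libraries ran from −0.20 to 0.137 and was not above 0.1 in all pairs. The causes were not tested. The log2 value of Htr1f between SCI + SCS and SCI, near 0 at 0.02, ran from −0.27 to 0.74 with 1 library left out and turned to −0.23 without SCI replicate 1, −0.27 without SCI replicate 3, −0.17 without SCI + SCS replicate 1 and −0.25 without SCI + SCS replicate 2. Without Sham replicate 2, SCI + SCS against Sham turned to 0.29 for Htr1b and 1.53 for Htr3b, whose ranges with 1 library left out were −0.50 to 0.29 and −4.99 to 1.53. In SCI, Htr1a, Htr1d and Htr4 had counts of 0 to 8 in each library, which limits the precision of their fold changes.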
